A study of Mus musculus with 4 samples.

Results

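The replication-dependent histone genes encode the core histones H2A, H2B, H3 and H4 and the linker histone H1 that package newly made DNA. They were taken here as every gene whose symbol starts with Hist1h, Hist2h, Hist3h or Hist4h and that held at least 20 unique molecular identifiers (UMIs, each standing for 1 captured RNA molecule) over both libraries of sorted blood stem and progenitor cells. This gave 62 of the 67 genes with such a symbol, out of 31053 genes in the files. The UMI counts that chose them are those described below, so the levels are a description and no test was made. The 62 genes comprised 5 H1, 16 H2A, 16 H2B, 12 H3 and 13 H4 genes. The Hist1 cluster on chromosome 13 held 50 of them, the Hist2 cluster on chromosome 3 held 9, the Hist3 cluster on chromosome 11 held 2, and Hist4h4 stood alone on chromosome 6. The fewest UMIs among the 62 were those of Hist1h4f with 73 and Hist1h3h with 92, so none lay close to the minimum. Below the minimum were Hist1h1t with 5 UMIs and Hist1h2aa and Hist2h2aa2 with 1 each, while Hist1h2bq and Hist1h2ba had 0.

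Mouse bone marrow was studied by droplet single-cell RNA sequencing in 4 libraries, with 1 library per group. The KLS libraries held lineage-depleted c-Kit+ Sca-1+ cells, a sorted fraction that contains blood stem cells and multipotent progenitors, from mice of 8 to 12 weeks. The MSC libraries held CD45-depleted stromal cells sorted on Sca-1 and CD140a from mice of 6 to 8 weeks. The control genotype was Vav1-Cre/+STAT5ab+/+ and the knockout genotype (STAT5 KO) was Vav1-Cre/+STAT5abfl/fl, so mice of both genotypes carried the Cre transgene. Vav1-Cre is active in blood cells, and the floxed alleles are those of Stat5a and Stat5b. The labels name 4 mice for the KLS sort without saying whether that is 4 of each genotype, and no cell is assigned to a mouse. Every comparison between genotypes is therefore between 1 library and 1 library, and every interval below is a 95% interval that covers counting error only.

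Replication-dependent histone messages are made in bulk while DNA is copied and are removed when copying ends. They usually end in a stem-loop, bound by the protein SLBP, in place of a poly(A) tail. Some histone genes also give messages with a poly(A) tail, above all in cells that have left the cycle, and the capture used here primes on poly(A). Mki67 encodes a protein of the chromosome surface used as a marker of cycling cells, and Top2a encodes the topoisomerase that untangles DNA before and during mitosis. STAT5 is a transcription factor that carries signals from cytokine receptors and is known for its role in maintaining blood stem cells.

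After filtering, 3085 KLS control and 6726 KLS STAT5 KO cells remained. Their median depth was 15136 and 10085 UMIs per cell, and their median share of mitochondrial UMIs was 4.44% and 2.91%. Stat5a was at 68.5 CPM (UMIs of the gene per 1000000 UMIs of the library) in the control and 6.74 in STAT5 KO, and Stat5b was at 60.8 and 4.49 CPM. The sorting markers Kit, Ly6a, Ptprc and Cd34 were all detected in both KLS libraries. Ly6a was at 65.2 CPM in the control and 48.8 CPM in STAT5 KO, called lower by the rule given below, and the others were not called. Mature red cell markers summed to 42.7 CPM in the control and 70.9 CPM in STAT5 KO, with 4 of 6 called higher by the rule given below. Stromal markers summed to 11.9 and 6.40 CPM, with Col3a1, Lepr and Pdgfra at 0 in the control and Pdgfra at 0 in STAT5 KO. Some barcodes occurred in more than 1 library, 393 of 3747 in the KLS control and 295 of 7511 in KLS STAT5 KO. The 388 and 281 of them with more UMIs in another library were left out, which left no shared barcode among the kept cells.

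The stem-loop at the end of the message was searched for first, because it is the feature that defines this gene family at the RNA level. It was found in the annotated transcripts of 44 of the 62 genes (71.0%), against 87 of 58797 protein-coding transcripts (0.148%). The 87 are transcripts and not genes, and they include those of the 44 genes. The commonest form occurred in 25 genes and the next in 7, and 8 forms were found in all. The sequences below are from the GENCODE M21 transcripts (GRCm38), 5′ to 3′ with the bases that flank them. The stem-loop is in capitals, and they are the genes whose levels the results turn on.
Hist1h2ap: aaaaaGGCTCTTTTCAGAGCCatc
Hist1h2ae: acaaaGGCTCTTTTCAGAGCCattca
Hist1h3c: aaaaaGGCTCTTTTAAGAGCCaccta
Hist1h1c: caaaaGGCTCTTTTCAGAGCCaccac
Hist4h4: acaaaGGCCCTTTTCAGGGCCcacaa
Hist1h4n: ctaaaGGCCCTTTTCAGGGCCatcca
Hist1h4i: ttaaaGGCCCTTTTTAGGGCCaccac
Hist1h2ap, Hist1h2ae and Hist1h1c share 1 form, Hist1h3c carries another, and the H4 genes Hist4h4 and Hist1h4n share a form that Hist1h4i does not have. How far the annotation runs past the stem-loop differed between them. The annotated Hist1h2ap transcript stops 3 bases after it, the Hist1h3c transcript 74 bases after it and the Hist1h2ae transcript 151 bases after it. The transcripts of Hist1h4i, Hist1h1c and Hist4h4 run on for 330, 840 and 2445 bases. In all, 21 genes had at least 150 annotated bases after the stem-loop and 23 had fewer. The other 18, among them Hist1h1b, Hist1h2bc and Hist1h2an, had no stem-loop in the transcript searched. Some of these transcripts are short in the annotation, such as Hist1h4k at 312 bases and Hist1h2an at 393, while Hist1h2bc has 1156 and Hist2h2be 2620. A stem-loop past the annotated end could not be found by this search.

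Many of these genes are near copies of each other, which limits how reads can be told apart. In 26 of the 62 genes more than 50% of the 50-base stretches of the transcript also occur in another of the 62. The share was 93.1% for Hist1h2ap, all of it shared with Hist1h2ao, and 43.2% for Hist1h2ae, mostly with Hist1h2ad. It was 85.8% for Hist1h2an, 85.6% for Hist1h4n, 47.0% for Hist1h3c and 0% for Hist1h1b and Hist4h4. Assignment between such copies is uncertain, and Hist1h2ao itself was counted at only 1.06 CPM in the control and 1.09 CPM in STAT5 KO. By position, 8 of the 62 genes, 2 of them also among these 26, overlap another gene of the files, for example Hist3h2a with Trim17 and Hist1h2be with Hist1h1e.

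Summed over the 62 genes, the level was 1938 CPM in the KLS control and 1880 CPM in KLS STAT5 KO. The difference in log2 was -0.04 (-0.06 to -0.03), and it turned to 0.094 when each cell was given equal weight and to 0.089 when each cell was first thinned to 4000 UMIs. This near balance was made of opposite parts. Hist1h2ap, an H2A gene, gave 1118 CPM in the control and 672 CPM in STAT5 KO, a log2 difference of -0.74 (-0.75 to -0.72). The other 61 genes together gave 820 CPM in the control and 1209 CPM in STAT5 KO, which is 1.47-fold higher (1.46 to 1.49). The share of all histone UMIs outside Hist1h2ap was 42.3% in the control and 64.3% in STAT5 KO.

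A gene was called higher or lower where its CPM differed by a ratio of at least 5 to 4, a log2 difference of 0.32, and the counting interval of the ratio left out 1. By this rule 38 of the 62 genes were higher in STAT5 KO, beside 6.87% of the 14413 genes measured, and 4 were lower, beside 12.7%. The other 20 were called neither, and 53 of the 62 ratios lay above 1. The median log2 difference of the 62 genes was 0.32, and that of all genes measured was -0.01. At 1.5-fold, 23 were higher and 1 was lower, beside 2.64% and 6.49% of all genes. By family, 4 of 5 H1 genes, 9 of 16 H2A, 10 of 16 H2B, 8 of 12 H3 and 7 of 13 H4 genes were higher. The median log2 difference was 0.71 for H1, 0.32 for H2A, 0.31 for H2B, 0.37 for H3 and 0.29 for H4. The 4 lower genes were Hist1h2ap (H2A), Hist2h3c1 (H3), and Hist4h4 and Hist1h4n (both H4).

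**Figure D1:**
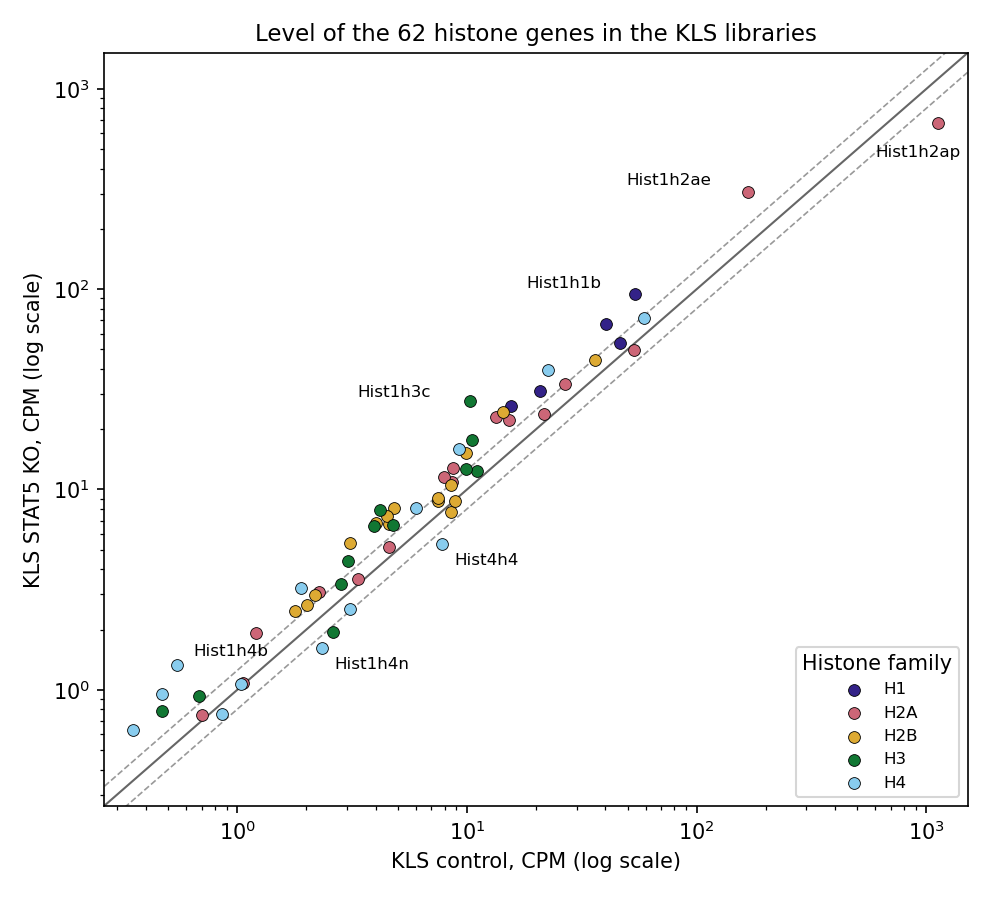
Level of each of the 62 histone genes in the KLS control (x axis, CPM, log scale) and KLS STAT5 KO (y axis, CPM, log scale), 1 point per gene, coloured by family. The solid line marks equal levels and the dashed lines a ratio of 5 to 4. Most points lie above the solid line, and Hist1h2ap, at 1118 and 672 CPM, lies below it.

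Among the H2A genes, which encode the histone that pairs with H2B in the nucleosome, Hist1h2ap and Hist1h2ae held most of the signal and differed in opposite directions. Hist1h2ae (chromosome 13, 23570517 to 23571220, minus strand) rose from 167 to 307 CPM, 1.84-fold (1.80 to 1.89). Hist1h2ap (chromosome 13, 21833026 to 21833507, minus strand) fell from 1118 to 672 CPM. Hist1h2an rose from 26.7 to 33.6 CPM. Hist1h2ac was at 53.6 and 49.6 CPM and Hist3h2a at 21.7 and 23.9 CPM, and neither was called. Without Hist1h2ap and Hist1h2ae the other 14 H2A genes summed to 169 CPM in the control and 203 CPM in STAT5 KO.

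The H1 genes encode linker histones, which bind the DNA between nucleosomes. They summed to 176 CPM in the control and 272 CPM in STAT5 KO, 1.54-fold higher, which raised their share of histone UMIs from 9.10% to 14.4%. Hist1h1b rose from 53.6 to 94.1 CPM, 1.75-fold (1.68 to 1.83). Hist1h1e rose from 40.1 to 66.7 CPM, Hist1h1a from 15.5 to 26.0 CPM and Hist1h1d from 20.8 to 31.1 CPM. Hist1h1c was at 46.3 CPM in the control and 53.7 CPM in STAT5 KO and was the H1 gene not called.

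The H3 genes encode the histone whose tail carries many of the known chromatin marks. They summed to 64.3 and 103 CPM, 1.60-fold higher in STAT5 KO (1.54 to 1.67). Hist1h3c (chromosome 13, 23744973 to 23745602, minus strand) had the highest ratio of all genes with at least 100 UMIs, from 10.3 to 27.7 CPM, 2.67-fold (2.43 to 2.95). Hist2h3c1 went the other way, from 2.60 to 1.95 CPM.

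The H4 genes encode the partner of H3 in the nucleosome core. They summed to 115 and 153 CPM, 1.33-fold higher in STAT5 KO (1.29 to 1.37). Hist1h4d rose from 22.5 to 39.5 CPM, while Hist1h4i, at 58.8 and 72.2 CPM, was not called at 1.23-fold (1.17 to 1.28). The next highest ratios after Hist1h3c belonged to scarce H4 genes, Hist1h4b with 28 and 102 UMIs and Hist1h4k with 24 and 73 UMIs. Hist4h4 (chromosome 6, 136801553 to 136804415, minus strand) fell from 7.80 to 5.33 CPM, a log2 difference of -0.55 (-0.75 to -0.35). Hist1h4n fell from 2.35 to 1.61 CPM, a log2 difference of -0.54 (-0.92 to -0.17). When each cell was thinned to 4000 UMIs, 2 of the 4 lower calls were lost, those of Hist1h4n at -0.11 and Hist2h3c1 at -0.02 in log2.

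The H2B genes summed to 128 and 171 CPM, 1.33-fold higher in STAT5 KO (1.29 to 1.37). Their most abundant gene, Hist1h2bc, was at 36.2 and 44.4 CPM and was not called. H2A and H2B genes are often arranged head to head around 1 shared promoter. Of the 62 genes, 20 formed 10 such pairs, with starts 176 to 302 bases apart. Both ratios lay above 1 in 7 pairs and the partners lay on opposite sides of 1 in the other 3. Hist1h2ap was lower in STAT5 KO while its partner Hist1h2br was at 7.47 and 8.77 CPM. Hist1h2ae was higher by 0.88 in log2 while its partner Hist1h2bg, at 7.47 and 9.05 CPM, was higher by 0.28.

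The promoters of the 2 H2A genes that differed in opposite directions are shown because each also serves an H2B partner. Both are RefSeq sequences of GRCm38.p6, the 250 bases before the RefSeq start of the gene on the gene's own strand, 5′ to 3′. The RefSeq start of Hist1h2ap lies inside the GENCODE gene given above, so 32 bases of its window overlap that gene. Capitals mark 3 motifs on either strand, namely CCAAT, the TATA box core spelled TATAAA, and the octamer spelled ATTTGCAT. The Hist1h2ap window is chr13:21833476-21833725 and the Hist1h2ae window is chr13:23571221-23571470, both on the minus strand.
Hist1h2ap: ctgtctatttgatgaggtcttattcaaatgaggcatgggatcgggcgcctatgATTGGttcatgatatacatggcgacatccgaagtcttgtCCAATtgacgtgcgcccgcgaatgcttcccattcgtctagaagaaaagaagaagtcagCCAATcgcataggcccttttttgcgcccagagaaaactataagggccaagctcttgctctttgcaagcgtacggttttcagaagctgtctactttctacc
Hist1h2ae: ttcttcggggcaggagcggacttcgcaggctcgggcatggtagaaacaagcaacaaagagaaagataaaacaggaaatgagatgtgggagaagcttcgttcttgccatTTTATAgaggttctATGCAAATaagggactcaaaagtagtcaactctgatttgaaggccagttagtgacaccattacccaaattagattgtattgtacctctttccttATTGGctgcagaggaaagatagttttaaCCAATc
The Hist1h2ap window holds CCAAT on both strands and neither of the other 2 motifs. The Hist1h2ae window holds all 3, but its TATAAA and its octamer lie on the strand of the partner Hist1h2bg. The same 2 sites occur in forward form in the window of Hist1h2bg. The Hist1h2ae window also runs past the GENCODE start of Hist1h2bg at 23571396, so part of it lies inside that gene. A RefSeq promoter was matched for 57 of the 62 genes. CCAAT, the box bound by the factor NF-Y, was in 46 of the 57 (80.7%), against 34.5% of 27025 promoters of the same length. TATAAA, the core of the TATA box, was in 27 (47.4%) against 13.0%. ATTTGCAT, the octamer known from H2B promoters, was in 11 (19.3%) against 1.61%, namely 6 of 16 H2A and 5 of 14 H2B promoters and none of the other families. All 5 H2B matches were on the gene's own strand and all 6 H2A matches on the opposite strand. Windows of head-to-head partners can overlap, so the matches are not all separate sites. Hist1h2ae and Hist1h2bg share 1 octamer site, as do Hist1h2ah and Hist1h2bk. These are matches of letters in 1 window and not measured binding sites.

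The genes were also grouped by the annotated end of the transcript. The 21 genes with at least 150 annotated bases after the stem-loop summed to 506 CPM in the control and 735 CPM in STAT5 KO, 1.45-fold higher (1.43 to 1.47), with 8 called higher and 2 lower. Hist1h2ae, at 167 and 307 CPM, is one of these 21 and lies close to the cut, with 151 bases. The 23 with fewer bases summed to 1248 and 880 CPM, 0.70-fold (0.70 to 0.71), with 19 called higher and 2 lower. Hist1h2ap is one of these 23, and at 1118 and 672 CPM it held most of their sum. The 0.70-fold thus rests on this gene and not on the group. The 18 with no stem-loop found summed to 183 and 265 CPM, 1.45-fold higher (1.41 to 1.48), with 11 called higher and none lower. This last group rests on where the annotation ends, and its messages may still carry a stem-loop. These counts stand beside 6.87% of all genes called higher and 12.7% called lower. The median log2 difference was 0.25, 0.42 and 0.31 in these groups. Gm42418 and AY036118, both listed as RNAs without a poly(A) tail, were at 491 and 13.5 CPM in the control and at 1044 and 35.4 CPM in STAT5 KO. Hspa1a, a heat-shock gene induced by stress, was at 6.36 and 21.7 CPM. The part of these RNAs, of depth and of mitochondrial share in the histone differences was not tested.

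The balance between Hist1h2ap and Hist1h2ae was followed cell by cell. Hist1h2ap made up 87.0% (86.8 to 87.3) of the UMIs of these 2 genes in the control and 68.6% (68.3 to 69.0) in STAT5 KO. At least 30 UMIs of the pair were found in 847 of 3085 control cells and 880 of 6726 STAT5 KO cells, and only these were scored. This minimum falls on the 2 genes compared, and depth differs between the libraries. The median share per cell was 87.8% in the control, with 5% of cells below 77.2%, and 68.9% in STAT5 KO, with 5% of cells above 83.8%. A share under 75% was found in 21 of the control cells and 649 of the STAT5 KO cells, 2.48% and 73.8%. Among the scored cells, most STAT5 KO cells thus lay below most control cells.

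**Figure D2:**
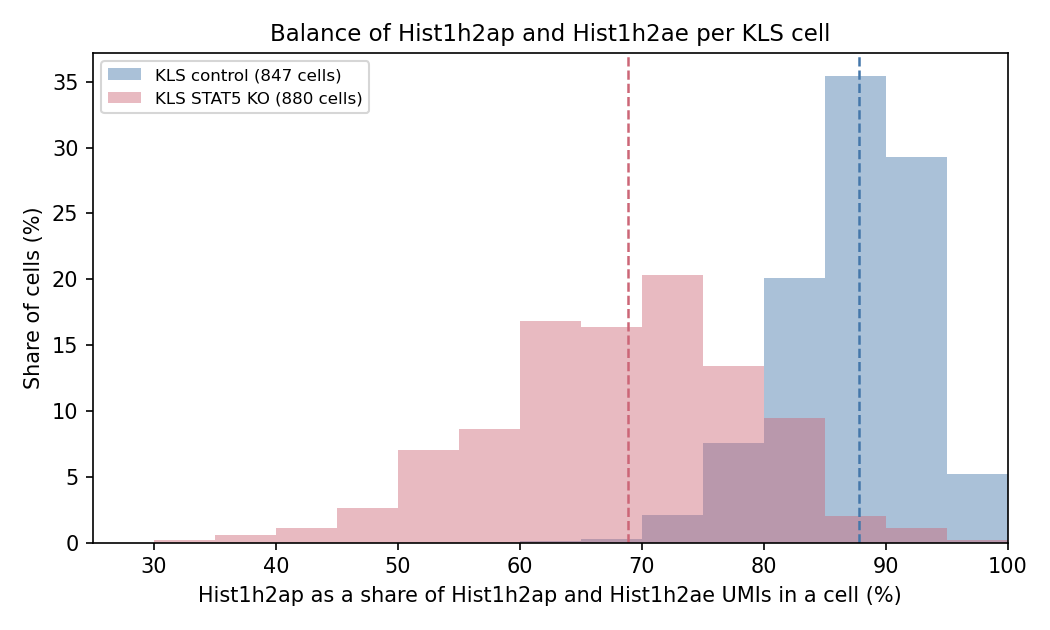
Share of Hist1h2ap among the UMIs of Hist1h2ap and Hist1h2ae in single KLS cells with at least 30 UMIs of the pair (x axis, %), as the share of cells in each 5-point bin (y axis, %). Dashed lines mark the medians, 87.8% in the KLS control and 68.9% in KLS STAT5 KO.

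The shift was present in each class of cells examined. By lineage gate the share lay between 86.2% and 88.5% in the control and between 64.3% and 69.3% in STAT5 KO. Both KLS libraries held cells with Xist, expressed from the inactive X chromosome of females, and cells with Y-linked genes, which allows a split within each library. Cells with at least 3 Xist UMIs and no Y-linked UMI had a share of 87.6% in the control and 68.5% in STAT5 KO. Cells with at least 2 Y-linked UMIs and at most 1 Xist UMI had a share of 86.5% and 67.9%. For Hist4h4 the split was uneven, with 5.43 CPM in the Xist cells and 10.3 CPM in the Y-linked cells of the control, and 5.36 and 5.42 CPM in those of STAT5 KO. Its lower level in STAT5 KO was thus seen in the Y-linked cells, while the Xist cells of both libraries were close in level. In the stromal libraries Stat5a was at 39.9 and 55.0 CPM and Stat5b at 50.2 and 46.7 CPM, and only 57 and 46 UMIs of the pair were counted. There the Hist1h2ap share was 64.9% (51.1 to 77.1) in the control and 84.8% (71.1 to 93.7) in STAT5 KO, the opposite order. The stromal libraries also differed in mature red cell markers, given below, and the part of this was not tested.

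Detection of the histone genes was compared after each cell was thinned to 4000 UMIs, which left out 24 control and 289 STAT5 KO cells. At least 1 histone UMI was found in 80.7% (79.3 to 82.1) of 3061 control cells and 84.9% (84.0 to 85.8) of 6437 STAT5 KO cells. The unthinned shares were 93.6% and 92.8%, in the opposite order, and no order is read from them. Hist1h2ap was detected in 56.0% and 58.6% of thinned cells, against the order of its CPM, and again no order is read. Hist1h2ae was detected in 29.9% and 44.5%, and Hist1h1b in 12.6% and 21.4%. In thinned stromal cells Hist1h2ap was found in 2 of 172 control and 2 of 104 STAT5 KO cells, at median depths of 5154 and 5042 UMIs before thinning.

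Mki67 rose from 307 to 403 CPM and Top2a from 534 to 690 CPM. Both were detected in 33.5% (31.8 to 35.2) of thinned control cells and 45.3% (44.0 to 46.5) of thinned STAT5 KO cells. The unthinned shares were 46.2% and 57.3%. Neither was detected in 45.8% and 30.3% of thinned cells. In the thinned stromal cells both were detected in 0 of 172 and 0 of 104.

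The histone level followed this detection in both libraries. In the control it was 519 CPM (508 to 530) in cells with neither gene, 1546 CPM with Mki67 only, 1451 CPM with Top2a only and 3137 CPM (3115 to 3160) with both. In STAT5 KO it was 548 CPM (537 to 560), 1172 CPM, 1300 CPM and 2648 CPM (2632 to 2664). Cells with both were 6.05-fold (5.91 to 6.19) above cells with neither in the control and 4.83-fold (4.73 to 4.94) in STAT5 KO. Cells with both were also deeper, with a median of 20637 against 9582 UMIs in the control and 13238 against 7084 in STAT5 KO, and the part of depth was not tested beyond the thinning. With the histone genes also counted in thinned cells, the ratios were 6.13-fold and 4.97-fold.

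**Figure D3:**
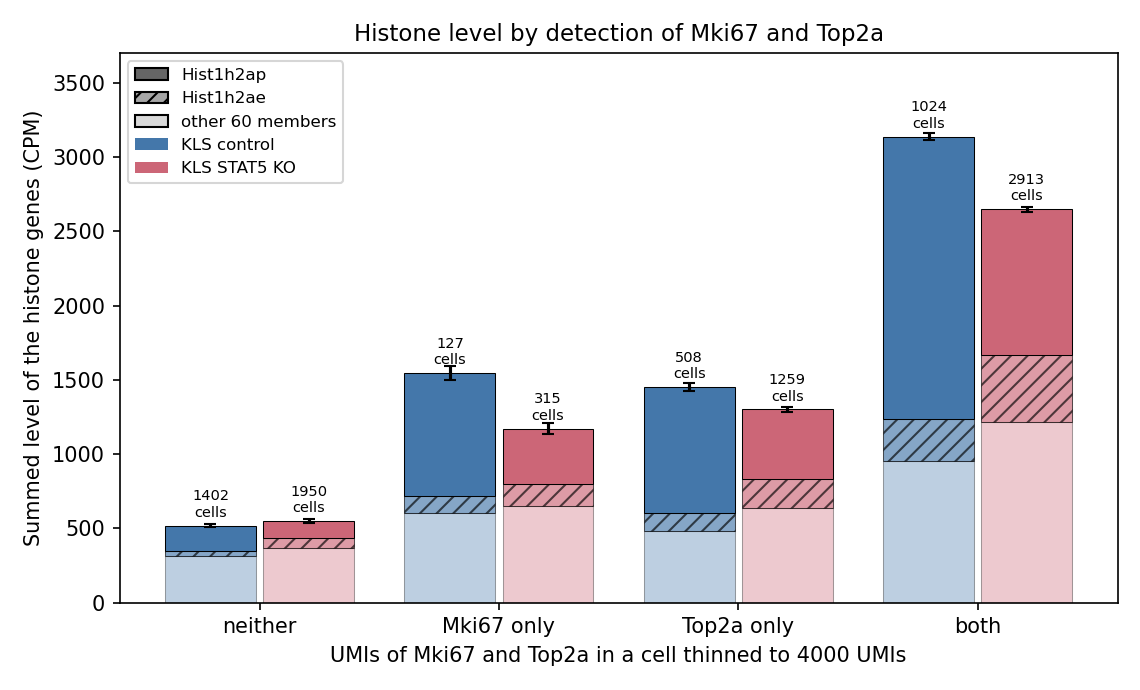
Summed CPM of the 62 histone genes (y axis) in KLS cells grouped by whether Mki67 and Top2a had a UMI after thinning to 4000 UMIs (x axis), with Hist1h2ap and Hist1h2ae drawn apart from the other 60. Bars start at 0, error bars are 95% Poisson intervals of the sum, and the number of cells stands above each bar. The level is lowest with neither gene, 519 and 548 CPM, and highest with both, 3137 and 2648 CPM.

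Within cells of 1 class, Hist1h2ap was lower in STAT5 KO and the rest of the histone genes higher. In cells with both genes Hist1h2ap was at 1902 and 979 CPM, and the other 61 summed to 1235 and 1669 CPM. In cells with neither, Hist1h2ap was at 168 and 116 CPM and the other 61 at 350 and 432 CPM. In cells with both, 28 of the 62 genes were called higher and 3 lower, beside 6.39% and 8.94% of all genes. All of these 28 were also among the 38 called higher over all cells. That overlap is no separate support, because these cells are part of all cells. They held 73799 of 99106 histone UMIs in the control and 110762 of 143623 in STAT5 KO. In cells with neither, 14 were called higher and 5 lower, beside 7.7% and 7.96%. After the 4 classes of STAT5 KO were reweighted to the shares they had in the control, the summed difference was -0.24 in log2 and 25 genes were called higher. No share of all genes is given for this weighting, so the 25 have no baseline here.

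Single genes differed widely in how closely they went with Mki67 and Top2a. A gene was called when it was at least 2-fold higher in cells with both than in cells with neither. This held for 53 genes in the control and 56 in STAT5 KO, beside 3.82% and 3.24% of all genes, and for 52 in both libraries. No gene was called lower in either library, beside 6.42% and 7.2%. Hist1h3c had the highest ratio in the control, at 18.6 against 0.623 CPM, 29.9-fold (16.1 to 62.8), and it was 23.2-fold in STAT5 KO. Hist1h2ab was 24.5-fold and 23.4-fold higher, and Hist1h3b 22.2-fold and 22.5-fold. Hist1h2af was 12.9-fold (7.92 to 22.4) in the control and had the highest ratio in STAT5 KO, 30.7-fold (16.1 to 67.4). Hist1h1b was 19.4-fold and 12.0-fold, Hist1h2ap 11.3-fold and 8.41-fold, and Hist1h2ae 8.21-fold and 7.44-fold higher. Hist1h3h and Hist1h4f had 0 UMIs in control cells with neither gene, beside 18 and 14 UMIs in cells with both.

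At the other end, 5 genes were within 2-fold in both libraries. Hist1h2bc was at 30.4 CPM in control cells with both genes and 45.4 CPM in cells with neither, a ratio of 0.67 (0.60 to 0.74). In STAT5 KO the 2 levels were 36.1 and 67.3 CPM, a ratio of 0.54 (0.50 to 0.58). Hist1h1c was at 47.9 and 50.2 CPM in the control and at 59.8 and 51.2 CPM in STAT5 KO. Hist3h2a had ratios of 1.28 and 1.32, Hist3h2ba of 1.58 and 1.61, and Hist4h4 of 1.29 and 1.49. Both genes of the Hist3 cluster and the lone Hist4 gene were thus among these 5. By transcript end, 14 of the 21 genes with at least 150 bases after the stem-loop were called higher in the control and 17 in STAT5 KO. Of the 23 with fewer bases 22 and 23 were called, and of the 18 with no stem-loop found 17 and 16, beside 3.82% and 3.24% of all genes.

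**Figure D4:**
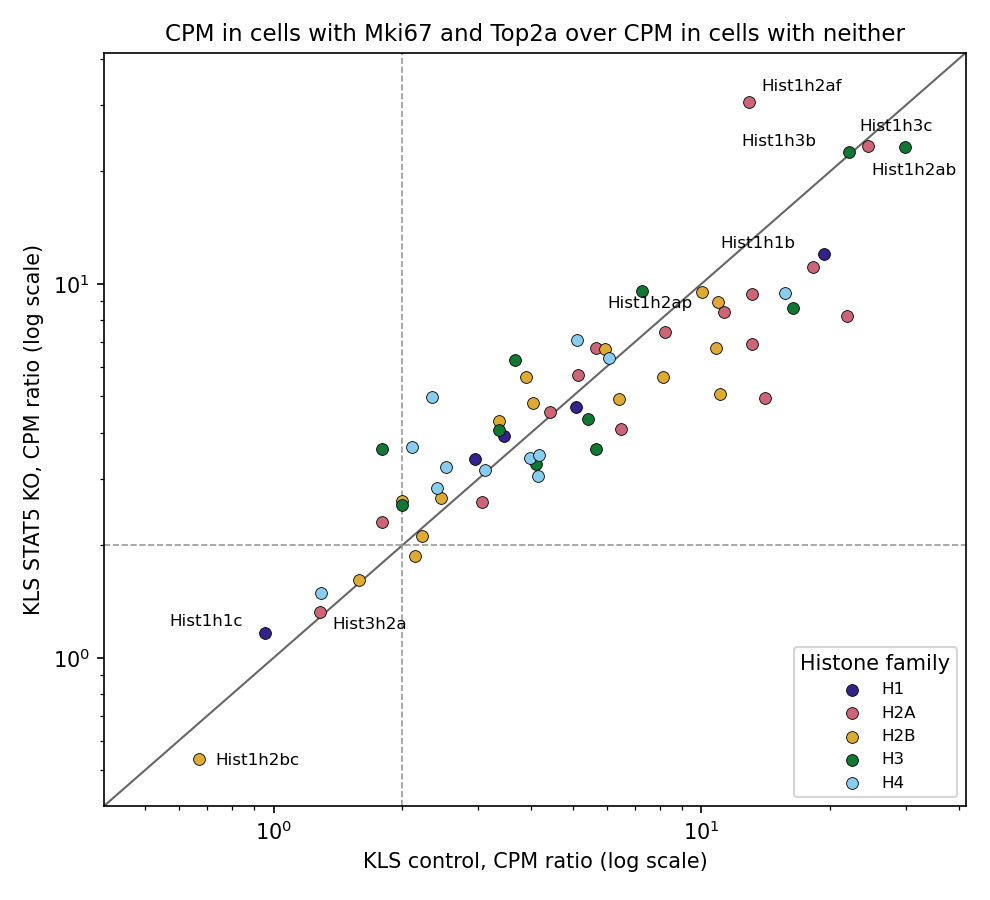
CPM in cells with Mki67 and Top2a divided by CPM in cells with neither, for each histone gene, in the KLS control (x axis, log scale) and KLS STAT5 KO (y axis, log scale). Dashed lines mark a ratio of 2 and the solid line equal ratios. Hist1h3h and Hist1h4f, at 0 UMIs in control cells with neither, are not drawn. Hist1h2bc and Hist1h1c stand at the lower left.

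Hist1h2bc and Hist1h1c, the genes with the lowest ratios, had the highest levels of the 62 in both stromal libraries. Hist1h1c was at 65.0 CPM in the MSC control and 115 CPM in MSC STAT5 KO, and Hist1h2bc at 73.6 and 94.2 CPM, above their KLS levels. Hist1h2ap was at 21.1 CPM (14.9 to 29.1) and 32.5 CPM (23.1 to 44.5) there. The 62 genes summed to 466 CPM in the MSC control and 585 CPM in MSC STAT5 KO, 1.26-fold (1.13 to 1.39). The stromal libraries also held RNA of other cells, with mature red cell markers at 31313.5 CPM in the MSC control and 14529 CPM in MSC STAT5 KO. The part of such cells in the stromal values was not tested.

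Lineage gates were set on thinned cells, using genes that are not histones. The stem gate needed a UMI of at least 2 of Hlf, Mecom and Procr, and the lymphoid gate at least 2 UMIs of Dntt. The megakaryocyte gate needed at least 2 UMIs of Pf4, and the myeloid gate at least 10 UMIs in sum of Mpo, Elane, Prtn3 and Ctsg. The erythroid gate held 9 and 40 cells and was not compared. These gates are cuts on a few genes and not cell types. Many cells lay at the minimum of a gate. Exactly 2 of the 3 stem genes were found in 580 control and 821 STAT5 KO cells, against all 3 in 96 and 107. Exactly 2 Dntt UMIs were found in 146 and 423 cells, exactly 2 Pf4 UMIs in 28 and 51, and 10 or 11 myeloid UMIs in 63 and 300.

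Cells in the stem gate had the lowest histone level of the 4 single gates compared, 1618 CPM (1590 to 1646) in the control and 1640 CPM (1609 to 1670) in STAT5 KO. They also had the lowest share of cells with both Mki67 and Top2a, 20.4% of 598 cells and 31.1% of 740 cells. The lymphoid gate was at 2111 CPM in the control and 1926 CPM in STAT5 KO, with both genes in 40.1% and 48.8% of its cells. The myeloid gate was at 1878 and 1799 CPM, and cells in no gate were at 2005 and 1949 CPM. The megakaryocyte gate, with 50 control and 148 STAT5 KO cells, was at 2124 CPM (2036 to 2216) and 2169 CPM (2103 to 2236). Among cells with both genes the stem gate was not the lowest, at 3531 CPM in the control and 2902 CPM in STAT5 KO, while the myeloid gate was at 2482 and 2244 CPM. Among cells with neither, the stem gate was at 477 and 487 CPM and the myeloid gate at 669 and 699 CPM.

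Between genotypes Hist1h2ap and the rest of the histone genes again went in opposite directions within the gates, while the sign of the summed difference was not stable. The log2 difference was 0.02 (-0.02 to 0.06) in the stem gate, -0.13 (-0.16 to -0.11) in the lymphoid gate, 0.03 (-0.05 to 0.11) in the megakaryocyte gate and -0.06 (-0.10 to -0.03) in the myeloid gate. With gates set on full counts it turned to -0.26 in the stem gate and to 0.021 in the lymphoid gate, and for cells in no gate it turned from -0.04 to 0.022. Reweighted to the control's Mki67 and Top2a classes it turned to -0.28 in the stem gate and to -0.051 in the megakaryocyte gate. Cells that met more than 1 gate, 100 in the control and 389 in STAT5 KO, differed more, at 1388 CPM (1332 to 1445) and 1855 CPM (1816 to 1894), a log2 difference of 0.42. Both Mki67 and Top2a were detected in 26.0% and 47.8% of them, and their Hist1h2ap was at 706 and 643 CPM. Hist1h2ap was lower in STAT5 KO in the stem, lymphoid, megakaryocyte and myeloid gates, at 917 and 584 CPM in the stem gate and 1189 and 690 CPM in the lymphoid gate. Without it the stem gate was at 701 and 1056 CPM, 1.51-fold higher in STAT5 KO (1.46 to 1.56). The same ratio was 1.34-fold (1.31 to 1.37) in the lymphoid gate, 1.69-fold (1.56 to 1.82) in the megakaryocyte gate and 1.49-fold (1.43 to 1.54) in the myeloid gate. Hist1h2ae was at 143 and 283 CPM in the stem gate and at 190 and 405 CPM in the megakaryocyte gate.

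**Figure D5:**
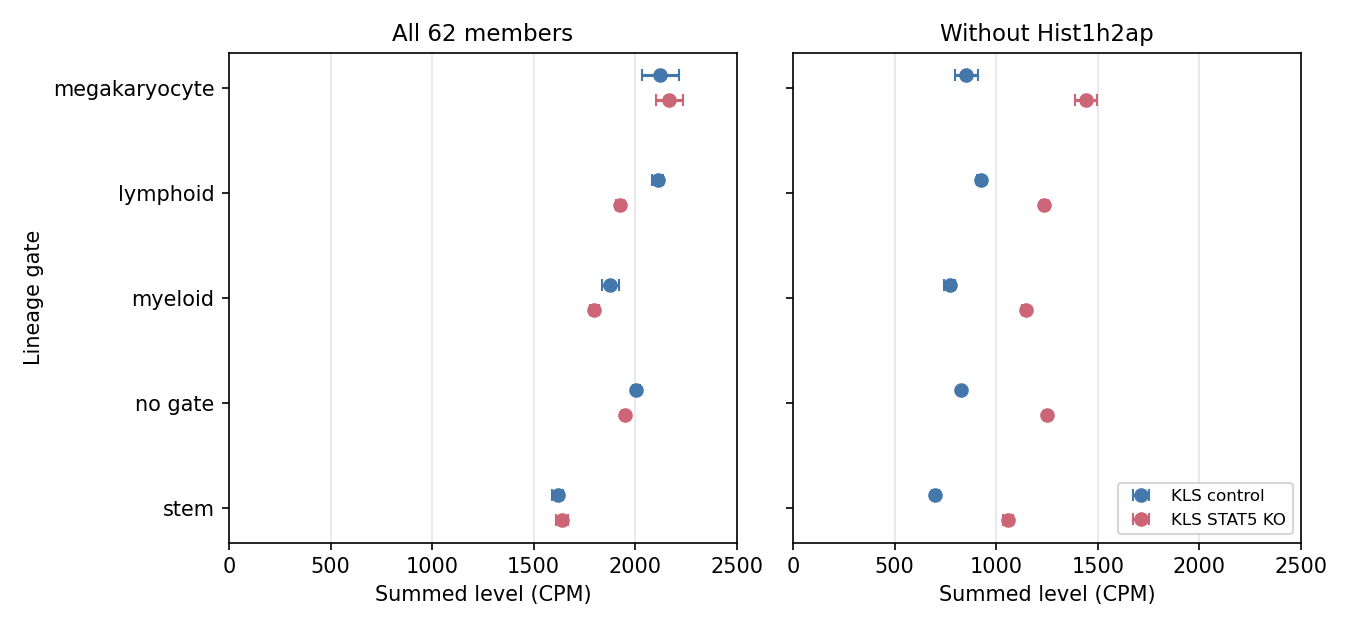
Summed CPM (x axis) of all 62 histone genes (left) and of the 61 other than Hist1h2ap (right) by lineage gate (y axis) in KLS control and KLS STAT5 KO cells, with 95% Poisson intervals. Cells that met more than 1 gate or the erythroid gate are not drawn. The genotypes lie closer together on the left, and STAT5 KO lies to the right of the control in every gate drawn once Hist1h2ap is left out.

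Single genes had their highest level in different gates. In the control, 20 of the 62 genes were highest in the lymphoid gate, 18 in the myeloid, 17 in the megakaryocyte and 6 in the stem gate. In STAT5 KO, 34 were highest in the megakaryocyte gate, 13 in the myeloid, 10 in the lymphoid and 2 in the stem gate, and 25 genes had the same leading gate in both libraries. Hist1h2ap led in the megakaryocyte gate in both, at 1272 and 729 CPM. Hist1h1c was highest in the stem gate of the control, at 55.4 CPM, and Hist1h4d in the lymphoid gate of both libraries, at 30.1 and 48.6 CPM. Many of these genes are scarce and the megakaryocyte gate is small, so an order between gates close in level is not firm. Leading gates were not counted over all genes, so the numbers of genes per leading gate have no baseline here.

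Other genes of the histone pathway were counted by the same rule, beside 6.87% of all genes called higher and 12.7% called lower. Of 11 replication-independent histone genes, which are expressed outside DNA copying, 1 was called higher, H2afj at 235 and 336 CPM, and 2 lower, the linker histones H1f0 at 78.3 and 59.3 CPM and H1fx at 162 and 118 CPM. H2afz, H2afx, H3f3a and H3f3b were among the 8 not called, and the median log2 difference of the 11 was -0.07. Of 14 measured factors that make or process histone messages, 1 was called higher, Srrt, and none lower, with a median of 0.20. Slbp, the stem-loop binding protein, was at 187 and 177 CPM, and Npat, a coactivator of histone gene transcription, was at 22.7 and 27.9 CPM, not called. Of 15 histone chaperones and related carriers, 2 were higher, Nasp at 136 and 177 CPM and Ipo4 at 24.1 and 31.2 CPM, with a median of 0.07.

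The cell cycle lists were counted beside the same 6.87% and 12.7% of all genes. Of 26 S phase genes 4 (15.4%) were called higher, namely Uhrf1, Dut, Hells and Pola1, and none lower, with a median log2 difference of 0.09. Of 25 G2 and mitosis genes 1 was called higher, Bub1, and none lower, with a median of 0.09. Among 8 genes tied to arrest of the cycle, Cdkn1a and Cdkn1b were higher and Cdkn1c lower, at 11.8 and 6.13 CPM. Cells with both Mki67 and Top2a were 12.4-fold above cells with neither for the summed mitosis list in the control and 1.47-fold for the S phase list, beside 6.05-fold for the histone genes.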

How the data were processed

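Droplet single-cell libraries of 2 KLS and 2 MSC groups, 1 library each, were deposited as sparse matrices of UMI counts per gene and barcode. The counts were made with Cell Ranger on GRCm38 (mm10), per the submitters' processing notes, and the file headers give software version 3.1.0. The annotation release and the use of strand are not given in the sources used here. The members and lists were chosen with earlier results of these data known. Kept cells had 200 or more genes and no more than 10% of UMIs from mitochondrial genes. The highest Scrublet scores (scanpy 1.11.5) were left out as doublets, 0.8% per 1000 barcodes, as were barcodes with more UMIs in another library. Cells kept in the stromal libraries numbered 577 in the MSC control and 374 in MSC STAT5 KO. Counts were summed per library and scaled to CPM. Ratios have exact conditional binomial intervals, levels exact Poisson intervals and shares exact Clopper-Pearson intervals, all at 95% and for counting error only. The median log2 difference of a list used a pseudocount of 1 CPM. With 1 library per group no test was made. Classes and gates were set on cells thinned to 4000 UMIs, with shallower cells left out. Coordinates and transcripts are from GENCODE M21, which holds 31011 of the 31053 gene identifiers and all 62 members, and promoters from RefSeq. The interval and call code was tested on simulated counts. Named genes are the 12 members with most UMIs, the 3 highest and 3 lowest ratios of each kind among the 60 members with at least 100 UMIs, and genes of the lists. Genes named beside these (Hist2h3c1, Hist1h1a, Hist1h2ao, the 2 partners of a pair and Hspa1a) were chosen after their values were seen, as were the groups by transcript end, the share of Hist1h2ap per cell and the split by Xist and Y-linked genes. Alternatives were other cell filters, scalings, weightings, depths and call rules, with edgeR 4.0.16 used for TMM factors.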

Additional observations from a re-analysis of the deposited data

How the results depend on the processing

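The summed log2 difference of the histone genes between KLS STAT5 KO and control, -0.04, was -0.15 with a stricter cell filter, -0.080 with no doublets left out, -0.032 with TMM factors, -0.080 without mitochondrial and ribosomal protein genes and -0.24 weighted to the control's Mki67 and Top2a classes. It turned to 0.094 as a mean over single cells and to 0.089 with cells thinned to 4000 UMIs. It was 0.56 without Hist1h2ap, 0.47 without Hist1h2ae too (chosen after seeing the data) and 0.32 as the median over genes. Its sign thus depended both on Hist1h2ap and on how the cells were weighted. The count of genes higher in STAT5 KO, 38, was 25 with the class weighting and 23 at 1.5-fold, and the count lower, 4, was 2 in thinned cells and 1 at 1.5-fold. The other alternatives gave 31 to 41 higher and 4 or 5 lower. Over all cells, the share of all genes called is given only for the main rule and at 1.5-fold. The ratio of cells with both Mki67 and Top2a to cells with neither, 6.05 in the control and 4.83 in STAT5 KO, was 4.50 and 3.90 with classes from 2000 UMIs, 5.90 and 4.69 with doublets kept, and 3.52 and 3.87 without Hist1h2ap, which turns the order of the libraries. It was 5.67 in the control with classes from full counts and 4.97 in STAT5 KO with histone genes counted in thinned cells. The difference in the share of cells with a histone UMI, 4.19 percentage points, was 7.40 at 2000 UMIs, 9.94 for at least 3 UMIs and reversed to -0.73 unthinned. That in the share with Mki67 and Top2a, 11.8 points, was 9.55 at 2000 UMIs. By gate, the log2 differences with gates on full counts were -0.26 (stem), 0.021 (lymphoid), 0.19 (megakaryocyte), -0.16 (myeloid) and 0.022 (no gate). Weighted to the control's classes within the gate they were -0.28, -0.28, -0.051, -0.14 and -0.22, and without Hist1h2ap (chosen after seeing the data) 0.59, 0.42, 0.76, 0.57 and 0.60. With doublets kept they were -0.18 in the lymphoid gate and -0.071 in no gate. Of 558 values of single genes under 9 alternatives, 70 left the counting interval of the main value and no called gene changed sign. The cause of these moves was not tested. No paired analysis was possible because each group is 1 library. Depth limits the scarce genes, and no interval covers the spread between mice.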

Other observations

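The histone level was also set against the fixed S phase and mitosis lists, with cuts of 8 S phase UMIs and 4 mitosis UMIs per thinned cell that were chosen after seeing the data. Cells at or above the S phase cut and below the mitosis cut had the lowest histone CPM. It was 443 CPM (429 to 457) in 574 KLS control cells and 426 CPM (415 to 438) in 1195 KLS STAT5 KO cells. Cells below both cuts were at 534 and 556 CPM. They were also shallower, with a median of 8527 against 13706.5 UMIs in the control and 6075 against 9111 in STAT5 KO. CPM is a share of UMIs, so this order is not one of histone UMIs per cell. Cells at or above the mitosis cut alone were at 2489 and 2168 CPM, and cells at or above both at 2967 and 2493 CPM. The counts thus followed the mitosis list more closely than the S phase list. Across 3061 and 6437 thinned cells, Spearman's rho between histone and mitosis list UMIs was 0.58 and 0.62, and that with the S phase list was 0.16 and 0.08, too weak to read. The cells of a library share its depth and capture, and many lay near a cut, 344 and 672 within 1 UMI of the mitosis cut.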
